A study of Mus musculus with 12 samples.

Results

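The open chromatin of young wild-type (WT) hematopoietic stem cells (HSCs) was described as an atlas of regions found in each of 3 ATAC-seq libraries. ATAC-seq uses a transposase that inserts sequencing adapters where DNA is accessible, and the deposited lists give the summits, the points of highest signal, of the peaks called in each library. Summits with a score of at least 3 (the score is −log10 of the q-value of the peak caller, so q was 0.001 or less) on chromosomes 1 to 19 and X were widened by 250 bp on each side and merged over the 3 lists. Of the 45981 merged regions, the 25921 that held a summit in all 3 lists form the atlas. The whole series has 12 libraries in 4 groups of 3, from WT and Mlkl-/- mice aged 3 or 18 months, and addresses how loss of Mlkl, a pseudokinase that executes necroptosis, relates to HSC aging. Its 12 lists together gave 70945 merged regions. Only the 3 young WT libraries are described here, and no comparison between groups was made.

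The young WT mice were of the C57BL/6 strain, 3 months old, and the labels name no transgene or treatment. Bone marrow HSCs had been sorted as Lin-/cKit+/Sca1+/Flk2-/CD48-/CD150+ cells. Per the study's methods, the cells of each replicate came from several pooled mice and all replicates were prepared on 1 day, so the spread between libraries is a spread between pools. The labels give no sex, and the study's reporting statement names animals of both sexes.

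HSCs renew themselves and supply all blood lineages through progenitors that become restricted to the myeloid, lymphoid, erythroid or megakaryocytic fate. Accessible DNA in a cell falls largely into promoters, where transcription starts, and into distal elements such as enhancers and insulators, which are bound by transcription factors. Factors of the ETS, RUNX, GATA, basic helix-loop-helix and homeodomain families are known to act together at distal elements of blood stem and progenitor cells.

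The elements near stem cell genes are shown first, because the starts of several of these genes were not called while distal regions nearest to them were. Each line gives the 101 bases centred on the strongest summit (mm10, plus strand, read from the GRCm38 reference), named by the protein-coding gene with the nearest start and the distance from that start, where a minus sign means upstream. Capitals mark matches on either strand to 4 motifs. The ETS motif was searched as AGGAAGT. For RUNX factors the letters were TGTGGTT. For GATA factors they were AGATAA. The E-box, the site of basic helix-loop-helix factors, was searched as CAGNTG. A match is a description of the letters only.
Gata2 +4.84 kb, chr6:88203127-88203227: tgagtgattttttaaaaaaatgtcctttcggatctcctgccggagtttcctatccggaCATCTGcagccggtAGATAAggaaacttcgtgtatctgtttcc
Gata2 -47.8 kb, chr6:88145999-88146099: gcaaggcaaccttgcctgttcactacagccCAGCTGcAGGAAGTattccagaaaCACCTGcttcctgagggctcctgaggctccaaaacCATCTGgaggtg
Meis1 +48.6 kb, chr11:18970107-18970207: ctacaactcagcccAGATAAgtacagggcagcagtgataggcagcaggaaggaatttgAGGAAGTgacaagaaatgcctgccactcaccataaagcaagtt
Meis1 +93.6 kb, chr11:18925076-18925176: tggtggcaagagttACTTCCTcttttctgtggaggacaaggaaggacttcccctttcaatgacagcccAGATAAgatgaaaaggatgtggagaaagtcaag
Mecom -5.43 kb, chr3:30515113-30515213: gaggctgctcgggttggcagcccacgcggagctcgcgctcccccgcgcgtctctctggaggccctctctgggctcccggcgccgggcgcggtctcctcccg
Kit +156 kb, chr5:75730930-75731030: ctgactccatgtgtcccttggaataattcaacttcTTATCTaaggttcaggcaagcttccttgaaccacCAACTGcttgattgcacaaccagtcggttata
Runx1 +24.4 kb, chr16:92801733-92801833: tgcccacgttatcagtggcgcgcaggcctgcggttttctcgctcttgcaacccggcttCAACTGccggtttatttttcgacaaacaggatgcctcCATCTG
Lmo2 -12.0 kb, chr2:103945944-103946044: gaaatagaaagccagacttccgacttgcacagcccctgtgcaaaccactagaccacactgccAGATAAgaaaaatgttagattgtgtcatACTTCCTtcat

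In the intronic Gata2 window an E-box (CATCTG) was followed by the GATA letters (AGATAA) with 8 bases between them. An E-box and a GATA site next to each other in an intron of Gata2 are known as an enhancer needed for HSC formation, bound by a complex of GATA2 with basic helix-loop-helix factors. Both Meis1 windows shown held an ETS and a GATA match, as did the Lmo2 window, and the Kit window held a GATA match and an E-box. None of these letters was in the Mecom window, which says only that they were not within those 101 bases.

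Gata2, Meis1, Mecom, Kit and Procr were used as markers to check the label HSC. Gata2, Meis1 and Mecom encode transcription factors of HSCs, Kit the receptor for stem cell factor and Procr the protein C receptor EPCR, a surface marker of HSCs. A start was called open when an atlas region had its strongest summit within 1 kb of an annotated start, partial when 1 or 2 lists had a summit there, and uncalled when none had. By this rule 2 of the 5 markers were open, 2 partial and 1 uncalled. Over all 21755 protein-coding genes 53.0% were open and 38.6% uncalled, so open starts at the markers were no more frequent than elsewhere. Atlas regions more than 1 kb from any start (distal regions) were nearest to 4 of the 5 markers and numbered 18, while 33.0% of all protein-coding genes had at least 1.

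Strength was measured within each list by ranking the atlas regions on their highest score, so that rank 1 is the strongest of 25921 and tied regions share a rank. Values for the 3 lists are given in the order Young WT 1, 2 and 3. At the start of Meis1 the highest scores were 12.8, 12.7 and 12.9 and the ranks 14709.5, 14621 and 12227.5, a mean of 13853 ± 1408 (SD, n = 3). At the start of Kit the scores were 9.30, 16.6 and 10.8 and the ranks 18855.5, 11054.5 and 14566.5, a mean of 14825.5 ± 3907. Both starts lay near the middle of the atlas, and the ranks of Kit differed more between lists than those of Meis1.

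At the Gata2 start Young WT 1 had no summit, and Young WT 2 and 3 had scores of 4.37 and 6.37. The Procr start had a summit in Young WT 1 only, with a score of 7.39, and no distal region was nearest to it. No list had a summit within 1 kb of a Mecom start. Thus every list lacked a summit at 2 of the 5 marker starts, which were Gata2 and Mecom in Young WT 1 and Mecom and Procr in Young WT 2 and 3. An intronic Mecom region at +1.29 kb, just outside the 1 kb limit, had ranks of 14679.5, 9139.5 and 12248. With starts taken within 2 kb, 3 of the 5 markers were open. These lists hold called summits and not signal, so an uncalled start is one at which no peak passed and is not shown to be closed.

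The strongest distal region of Kit and of Meis1 ranked above the start of the same gene in every list. The intronic Gata2 region at +4.84 kb had ranks of 4333, 4833.5 and 7376, and the Gata2 region at −47.8 kb had 15480, 20092 and 15563. The strongest Kit region lay 156 kb downstream of the Kit start, between genes, with ranks of 1373.5, 2692 and 3160. The Mecom region at −5.43 kb had ranks of 7682.5, 4668 and 8476 and was the strongest of 5. Of these, the upstream Gata2 region was the weakest in every list and the Kit region the strongest.

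Meis1 had 7 distal regions. The strongest, in an intron at +48.6 kb, had ranks of 10083.5, 1738 and 5309, and the intronic region at +93.6 kb had 8123, 6351 and 4330.5. The first of these differed widely between lists, while the second stayed within a narrower band. A region was assigned to a gene by the nearest start alone, and contact with that gene was not measured.

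The lists differed in length. The deposited lists held 48815, 45672 and 39529 summits, of which 47181, 44335 and 37449 were kept, and they hold no read counts, so sequencing depth was unknown and no counting interval can be given. Of the merged regions of each list, 66.7%, 72.1% and 83.6% were in the atlas. Young WT 3 alone lacked a summit in 4765 regions that the other lists shared, against 1372 for Young WT 1 and 1877 for Young WT 2, so the shortest list set much of the atlas boundary. Across the 25921 regions the ranks of pairs of lists had Spearman correlations of 0.814 to 0.835, a description over regions of the same genome. No line was identical between a pair of lists. The SD of a region's 3 ranks had a median of 2335 over the atlas and of 599 in its strongest decile.

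Summits under the score of 3 numbered 1496, 1217 and 1979. Among them were a summit at the Fli1 start (score 2.41) and one at the Hoxa9 start (score 2.32), both in Young WT 2. Regions outside the atlas were weaker. The median score of summits inside it was 12.6, 12.6 and 11.2, and of those outside it 5.38, 5.44 and 5.08. Of the regions found in 1 list, 17.1% were within 1 kb of a start, against 20.3% of those in 2 lists and 47.3% of those in 3. The merged windows of the atlas covered 17.48 Mb, or 0.683% of the genome.

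Transcription starts held the largest single share of the atlas. Within 1 kb of a start lay 12267 regions (47.3%), while 4.40% of genome bases are that close to a start. Introns held 6976 (26.9%, against 40.0% of genome bases) and intergenic DNA 5929 (22.9%, against 52.6%). Coding exons held 349, UTRs 248 and other exons 152. Summits at starts clustered at the start itself, with a median offset of −18 bp, quartiles of −93 and 75 bp, and 79.4% within 200 bp. The nearest start belonged to a protein-coding gene in 10673 of these regions and to a long noncoding RNA in 991.

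Distal regions numbered 13654. From the nearest start, 5592 were 1 to 10 kb away, 6537 were 10 to 50 kb, 1134 were 50 to 100 kb and 391 were farther. Merged start regions were wider than distal ones, with a median of 703 bp against 544 bp. This width is set by the spacing of the merged summits, each widened by 250 bp on each side. Start regions were also richer in G and C, with a median of 65.2% against 51.2%. Distal windows moved by 10 kb had a median of 45.8%. An observed-to-expected CpG ratio of at least 0.6, as in CpG islands, was found at 76.0% of start regions and 10.9% of distal regions.

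The share of starts changed with strength. In the strongest decile of the atlas 69.1% of regions were at starts, 15.8% in introns and 14.0% between genes, and in the weakest decile these shares were 29.8%, 35.7% and 30.8%. The share at starts was lower in each decile than in the one before it.

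**Figure D1:**
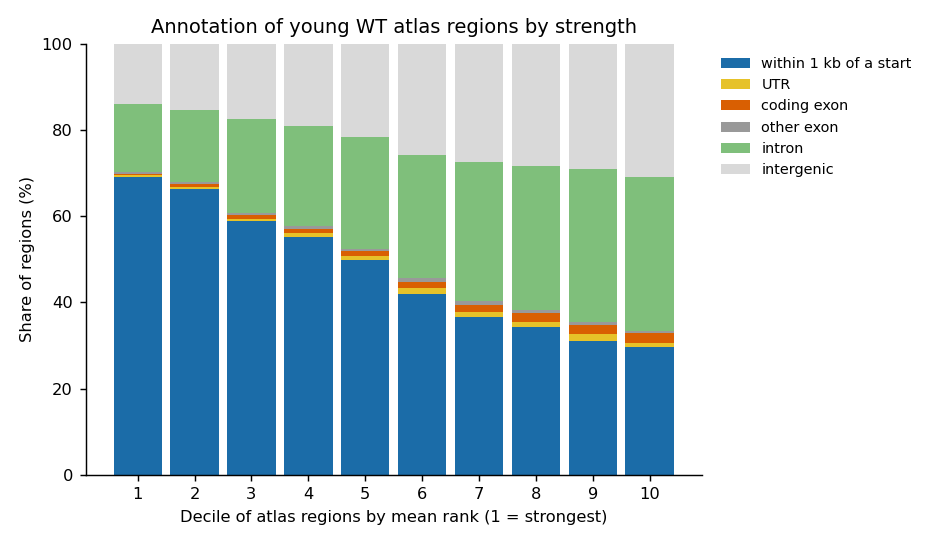
Share of atlas regions in each annotation class (y axis, %) for the 10 deciles of mean rank (x axis, 1 is the strongest). The part within 1 kb of a start shrinks from 69.1% in the first decile to 29.8% in the last, while introns grow from 15.8% to 35.7%.

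By chromosome, the number of regions ran from 3.87 per Mb of sequenced bases on X to 14.1 on chromosome 11, with the autosomes between 8.18 and 14.1. Per protein-coding gene X had 0.668 regions and the autosomes 0.831 to 1.61. On X, 60.5% of the regions were at starts, the highest share of any chromosome. The number of X chromosomes in the pools is not known, and its part in these values was not tested.

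Most of the 20 strongest regions had near copies elsewhere in the genome. In all 3 lists the same region in an intron of the noncoding gene Gm33838 (chr9:35305173-35305675) ranked 1 (scores 263, 274 and 283), and its bases were 100% repeat-masked with 385 places of at least 90% identity over 70 bases or more. A region on chromosome 12 with ranks of 2, 3 and 2 aligned to the mitochondrial genome at 99.5% identity. Another, on the same chromosome, lay 27.3 kb from the pseudogene Gm9075 and 200 kb from the start of Rab10. It ranked 3, 2 and 3 and had 386 places of that identity. Of the 20, 18 had more than 1 such place, 6 had at least 2 exact copies of the 70 bases at the summit, and 6 aligned to mitochondrial DNA. Among ranks 21 to 100 by mean rank 65 of 80 regions had 1 place, and among the next 200 this held for 175. Over the atlas, the 70 bases at the summit, the length of a read, occurred at least 2 times exactly in 693 regions (2.67%). Reads that match several places cannot be assigned to 1 of them from the lists, and the part of such places in the scores was not tested.

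Among the 20 strongest regions with 1 place, a selection made after the ranks were seen, 13 were at starts and 7 distal. The strongest start was that of Hjurp, which encodes a chaperone of the centromeric histone CENP-A, with ranks of 16, 18 and 15. Ppp2r1a, a scaffold subunit of protein phosphatase 2A, had 23, 51 and 21. Ctla2b, which encodes a protein related to cathepsin propeptides, had 55, 22 and 31. Sel1l, which acts in the degradation of misfolded proteins, had 22, 28 and 70, and Eif2ak3, the stress kinase PERK, had 56, 46 and 39. Casp8ap2 had 40, 77 and 25.

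Sequences of 3 of the strongest starts are shown because they held the letters CCAATNAG, the match that differed most between strong and weak starts. Each is 101 bases centred on the summit (mm10, plus strand), and capitals mark that match on either strand. All 3 windows lie upstream of the start and outside annotated exons.
Eif2ak3, chr6:70844335-70844435: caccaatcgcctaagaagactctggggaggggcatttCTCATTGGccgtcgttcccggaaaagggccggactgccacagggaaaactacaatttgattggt
Scai, chr2:39190787-39190887: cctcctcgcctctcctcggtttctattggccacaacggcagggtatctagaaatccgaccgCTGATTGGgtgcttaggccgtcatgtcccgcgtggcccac
Armc1, chr3:19163121-19163221: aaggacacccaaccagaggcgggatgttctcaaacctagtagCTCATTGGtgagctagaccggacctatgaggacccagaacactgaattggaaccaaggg

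The summit of Eif2ak3 lay at −130 bp from the start, that of Scai at −103 bp and that of Armc1 at −106 bp. Of the 20 strongest 1-place starts, 7 held CCAATNAG within 100 bp of the summit, against 7.83% of all start regions and 21.1% of the strongest decile of them. These were chosen from their ranks, and the count is a description.

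The strongest distal region with 1 place had ranks of 18, 11 and 12 and lay between genes, 4.17 kb from the pseudogene Gm11668 and 88.6 kb from the start of Axin2, a feedback inhibitor of Wnt signalling. The next lay in an intron of the noncoding gene Gm13218, 284.5 kb from the start of Gata3, with ranks of 35, 44 and 24. Gata3 encodes a GATA factor of T cells that is also expressed in HSCs, and its own start was partial. A region in an intron of Ppa2, a mitochondrial pyrophosphatase, had 29, 26 and 48. Ranks of all 3 were within the first 50 in every list.

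Sequences of 4 further regions among the 12 strongest distal regions with 1 place are shown, chosen because they hold matches to the ETS, RUNX or GATA letters (101 bases centred on the summit, mm10, plus strand, capitals as for the stem cell genes).
Rab38 -6.18 kb, chr7:88424047-88424147: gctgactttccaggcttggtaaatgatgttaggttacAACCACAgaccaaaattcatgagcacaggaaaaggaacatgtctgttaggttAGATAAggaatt
Bod1 -54.2 kb, chr11:31726060-31726160: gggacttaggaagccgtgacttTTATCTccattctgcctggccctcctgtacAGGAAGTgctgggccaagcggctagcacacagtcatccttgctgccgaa
Ybx3 +34.7 kb, chr6:131353662-131353762: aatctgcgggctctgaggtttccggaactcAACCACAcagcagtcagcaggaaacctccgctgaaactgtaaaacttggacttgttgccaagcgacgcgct
Cxcl5 -17.2 kb, chr5:90742172-90742272: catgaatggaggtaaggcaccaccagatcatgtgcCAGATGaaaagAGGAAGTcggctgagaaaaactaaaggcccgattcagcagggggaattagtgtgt

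The Rab38 region had ranks of 41, 20 and 53, and its window held a RUNX and a GATA match. The region near Bod1 had 33, 66 and 37 with an ETS and a GATA match. Ranks of 104, 129 and 27 were found near Ybx3, with a RUNX match, and of 34, 94 and 150 near Cxcl5, with an E-box beside an ETS match. The last 2 regions varied more between lists than the first 2. Over the 20 strongest distal regions with 1 place, 9 held a RUNX match within 100 bp and 7 a GATA match, where 15.2% and 13.0% of all distal regions did. An ETS match was in 6 and an E-box in 12, against 22.9% and 47.5% of all distal regions, and the CTCF motif in 0 against 3.66%. These few regions were chosen by rank, and the counts are a description.

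Motif matches were counted within 100 bp of the summit, on both strands, in all 13654 distal and 12267 start regions. The same count was made in the distal windows moved by 10 kb and at 41219 starts of protein-coding genes. In distal regions ETS letters (AGGAAGT) were found in 22.9% against 4.83% of moved windows, a ratio of 4.73. The longer PU.1 form GAGGAAGT, which contains the ETS letters, was in 9.35% against 1.29%. RUNX letters (TGTGGTT) were in 15.2% against 5.002% and AP-1 letters (TGANTCA) in 15.4% against 6.01%. GATA letters (AGATAA) with 13.0% against 11.0% and E-boxes (CAGNTG) with 47.5% against 41.0% were only slightly more frequent than in moved windows. The motif of CTCF, the insulator protein, was in 3.66% against 0.132%.

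The match shares varied with strength. From the strongest to the weakest decile of distal regions, ETS went from 25.0% to 19.6%, RUNX from 19.6% to 11.8%, AP-1 from 18.3% to 11.7% and GATA from 15.2% to 11.4%. CTCF ran the other way, from 0.952% to 5.20%, and was at 5.78% in distal regions found in 1 list only. Of distal regions with a CTCF match 10.2% also had an ETS match, against 23.4% of those without one. Among the other pairs, a RUNX match was found in 15.7% of regions with and 15.1% of regions without ETS letters. These 2 shares were nearly equal.

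At starts E-boxes were the most frequent of the letters searched, in 31.8% of start regions against 36.2% of all protein-coding starts. AP-1 letters were in 4.07% against 4.04%, RUNX letters in 3.50% against 3.01% and GATA letters in 2.72% against 5.42%. CCAATNAG, the site of NF-Y, was in 7.83% of start regions and 5.17% of all protein-coding starts, with 21.1% in the strongest and 3.34% in the weakest decile. GC-boxes (GGGGCGGGG), the site of SP factors, were in 14.9% against 11.5%, with 14.8% in the strongest decile, 19.2% in decile 2 and 8.08% in the weakest. The cAMP response element TGACGTCA was in 2.51%, from 3.50% in the strongest to 0.734% in the weakest decile. ETS letters were in 7.47% of start regions against 6.09% of all protein-coding starts. That background includes the open starts, while distal regions were set against moved windows, so the differences at starts and at distal regions are not on the same scale. The windows differ in base composition, and its part in these shares was not tested.

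**Figure D2:**
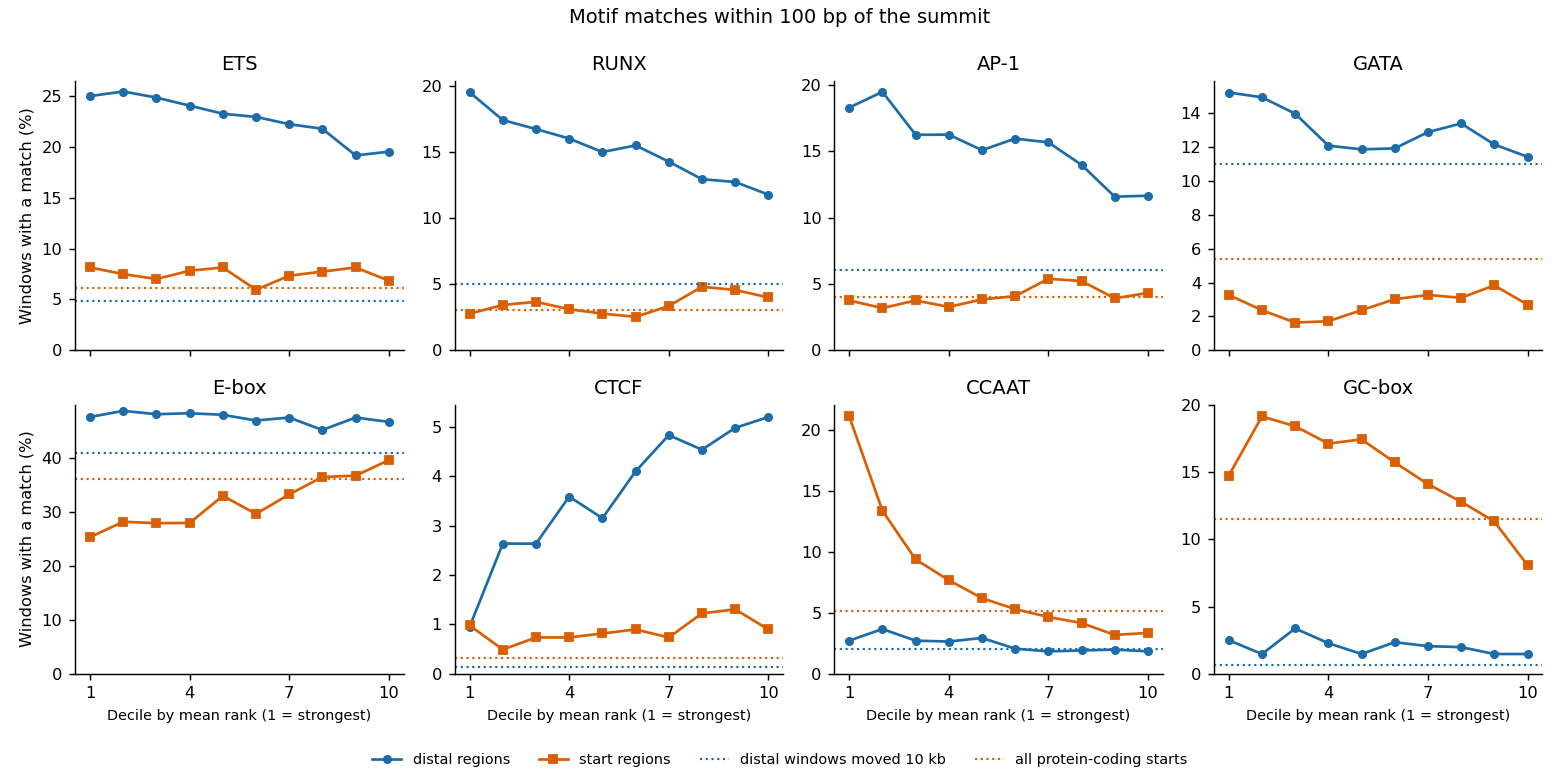
Share of windows with a motif match (y axis, %) by decile of mean rank (x axis, 1 is the strongest) for distal regions (blue circles) and start regions (orange squares), with dotted lines for distal windows moved by 10 kb (blue) and all protein-coding starts (orange). ETS, RUNX and AP-1 shares of distal regions lie above their dotted line in every decile, CTCF rises from 0.952% to 5.20%, and CCAAT at starts drops from 21.1% to 3.34%.

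Gene lists were then read by role. Of 258 genes listed, 257 were found in the annotation, and 9 lists were used. Some genes are in several lists (Kit and Flt3, for example). All percentages of open and uncalled starts stand against 53.0% and 38.6% over all protein-coding genes, and percentiles count from 0 (weakest) to 100 (strongest atlas region), with a median of 65.9 over all open protein-coding starts.

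Among stem cell genes, 24 of 45 starts were open (53.3%), 13 partial and 8 uncalled. That share was close to the one over all genes. Their open starts had a median percentile of 47.4, below the 65.9 of all open starts. Distal regions were nearest to 34 of the 45 (75.6%, against 33.0%), with 117 regions in all. The same share was 60% of megakaryocyte, 48.8% of myeloid, 45.8% of lymphoid and 43.2% of erythroid genes, and 24% of genes of other organs. These lists differ in their mix of roles, and only the stem cell list of the blood lists holds no effector genes of mature cells. Among regulators the share was 84.6% for stem cell, 80% for myeloid, 64.7% for lymphoid, 57.1% for megakaryocyte and 50% for erythroid genes. For surface and signalling genes of HSCs it was 63.2%, against 56.3% of megakaryocyte, 55.6% of lymphoid, 50% of myeloid and 33.3% of erythroid receptors.

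Of 26 genes listed as regulators of HSCs 16 were open, 6 partial and 4 uncalled, and 22 had a distal region. Myct1, a MYC target gene with a known role in HSC self-renewal, had the strongest start, with ranks of 236.5, 610 and 394. Hlf, a PAR bZIP factor of HSCs, had 4970.5, 3794 and 3825, and Egr1, an immediate early zinc finger factor, had 4503, 2901 and 6661. Of these 3 only Myct1 was in the strongest decile in all lists, and Egr1 varied most.

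Start regions of the stem cell leukemia factors were also open. Tal1 had ranks of 8002, 7164 and 6774 and its paralog Lyl1 6826, 5295 and 7397. The ETS genes Etv6 (mean rank 4814 ± 597) and Erg (13445 ± 544) were open, and Bmi1 of the Polycomb repressive complex had 15278 ± 500 (SD, n = 3). For these genes the spread between lists was small beside the range of the atlas.

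Runx1, the RUNX factor required for the emergence of HSCs, had a start region in the weaker part of the atlas and strong distal regions. The ranks of this start region were 17864, 18071 and 24015.5, with scores of 10.1, 9.90 and 4.85. The highest scores within 1 kb of any Runx1 start were 10.1, 10.4 and 11.3. Young WT 2 and 3 thus had a stronger start summit outside the ranked region. The intronic region at +24.4 kb had 190, 58 and 426, and the one at +3.81 kb had 2718, 2165 and 3813. Runx1 had 11 distal regions in all. Its mean rank of 224.7 at +24.4 kb was above that of any open start among the stem cell genes, of which Myct1 was the strongest at 413.5.

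Lmo2, Gata2, Hoxa9, Hoxb4, Hoxb5 and Prdm16 were partial. Lmo2, an adaptor in complexes of TAL1 and GATA factors, had start scores of 7.55 and 11.1 in Young WT 1 and 2 and no summit in Young WT 3, and it had 4 distal regions. Prdm16, a histone methyltransferase family member needed by HSCs, had a start summit in Young WT 1 only and a distal region at +95.1 kb with a mean rank of 3773. Mecom, Fli1, Ndn and Nkx2-3 were uncalled, and each of the 4 had at least 1 distal region. Fli1, an ETS factor, had 5, the strongest at −14.9 kb with ranks of 2831, 1075 and 6986.5.

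Of 19 surface and signalling genes of HSCs 8 were open, 7 partial and 4 uncalled. Robo4, a receptor in HSC homing, had start ranks of 4468.5, 5746.5 and 4905, and Ctnnal1, an alpha-catulin gene enriched in HSCs, had 7277, 6343 and 5722. Eng, a TGF-beta coreceptor, had a mean rank of 23643.5 at the start and of 3140 at −8.42 kb. Cxcr4, the receptor for the niche chemokine CXCL12, had 17151 at its start and 1544 at −113 kb.

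Fgd5, Esam, Tek, Tie1, Neo1, Angpt1 and Procr were partial. Fgd5, used to mark HSCs, had a region at −6.57 kb with ranks of 4616, 3225 and 4146.5 despite its partial start. Slamf1, Ly6a, Cd27 and Mmrn1 were uncalled.

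The surface proteins of the sort gave another check of the label. Kit and Flt3 had open starts. Flt3, which encodes Flk2 and whose protein is absent from the sorted cells, had scores of 24.5, 36.7 and 34.1 and ranks of 5993.5, 2238.5 and 2194, which were stronger than those of Kit in every list. Cd48, also selected against, was uncalled, as were Slamf1 (CD150) and Ly6a (Sca-1), which were selected for. The 70 bases at the Ly6a start occur at 2 places in the genome. Slamf1 had a region at −5.14 kb with a mean rank of 8442. Calls at these starts thus did not follow the sort.

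**Figure D3:**
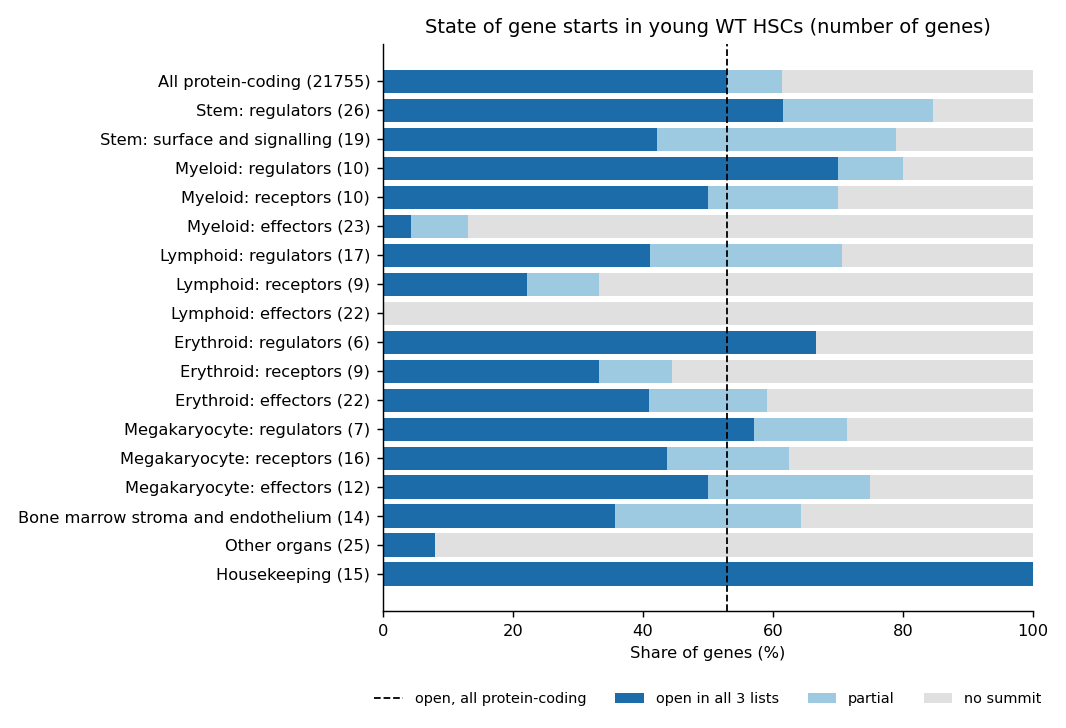
Share of genes (x axis, %) whose start was open in all 3 lists, partial or without a summit, for each list and role (number of genes in brackets), with a dashed line at the share of open starts over all protein-coding genes. Myeloid and lymphoid effectors and markers of other organs are almost wholly without a summit, and all 15 housekeeping genes are open.

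Myeloid genes differed by role. Overall counts were 13 open, 5 partial and 25 uncalled of 43. Of 10 regulators 7 were open. Klf4, a zinc finger factor of monocytes, had ranks of 7246, 5634.5 and 6762.5, and Cebpa, the C/EBP factor that directs granulocyte fate, had 12459.5, 11339.5 and 8605.5. Spi1, which encodes PU.1, had 24798.5, 16094 and 13616, which differed widely between lists. Cebpe, a factor of late granulocytes, and Gfi1, a repressor active in HSCs and granulocyte precursors, were uncalled. The region at −33.5 kb from the Gfi1 start had ranks of 374, 320 and 449.5 and was among the strongest distal regions near any listed gene.

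Of 10 myeloid receptors 5 were open, led by the interleukin-3 receptor gene Il3ra with 6434, 4862 and 6834. Csf2ra and Csf2rb, for the receptor of GM-CSF, had mean ranks of 7460 and 14825, while Csf1r (the M-CSF receptor) was uncalled and Csf3r (the G-CSF receptor) partial. Among 23 effector genes, which encode granule proteins and surface proteins of mature cells, Cd68 was open, Lyz2 and Cpa3 were partial and 20 were uncalled. The uncalled ones included Mpo, Elane, Ctsg, Ltf, Camp, S100a8, S100a9 and Ly6g. Ly6c2 was uncalled at its start but had a region at +24.9 kb with a mean rank of 319, whose 70 summit bases have 2 exact places.

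Lymphoid genes had 9 open, 6 partial and 33 uncalled starts of 48. Of 17 regulators 7 were open. Tcf3, whose E proteins start B and T cell programs, had 2470.5, 4358 and 4355. Id2, an inhibitor of E proteins, had 8057.5, 4448.5 and 5904. Ikzf1, which encodes Ikaros, had 13873, 14522.5 and 14303, which were close in all lists. Bcl11a and Gata3 were partial, and Pax5, Bcl11b, Tbx21 and Foxp3 were among the uncalled ones. Bcl11a had 8 distal regions with the strongest at +146 kb (mean rank 1098), and Id2 had 12 with the strongest at −22.4 kb (mean rank 681). A Gata3 region at −1.09 kb, just outside the 1 kb limit, had a mean rank of 11268.

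None of the 22 lymphoid effector genes had a summit at its start in any list. Among them are Rag1 and Rag2 for receptor gene rearrangement, Cd79a and Ms4a1 of B cells, and Cd3d, Cd3e, Cd4 and Cd8a of T cells. A distal region was nearest to 6 of the 22 (27.3%, against 33.0% of all protein-coding genes). An intron of Dntt, which encodes terminal deoxynucleotidyl transferase, held a region at +1.89 kb with ranks of 3822, 1365.5 and 1703.5. The region at +4.82 kb from the Cd3d start, in a UTR, had a mean rank of 4155. Of 9 lymphoid receptors Flt3 and Cd28 were open, Ccr9 was partial, and 6 were uncalled, among them Il7r, Il2rb, Ccr7, Cd2 and Cd40.

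Erythroid genes had 16 open, 5 partial and 16 uncalled starts of 37. Regulators were open in 4 of 6 cases: Cbfa2t3, a corepressor, Zfpm1 (FOG-1, a cofactor of GATA1), Ldb1 and Gfi1b. Cbfa2t3 led with 7795.5, 5637 and 3174, and its region at +12.7 kb had a mean rank of 1347. Gata1, the master factor of the lineage, and Klf1 were uncalled. A Klf1 region at +1.42 kb, just outside the 1 kb limit, had a mean rank of 11072. The receptor genes Tfrc, for transferrin, and Epor, for erythropoietin, were open with mean ranks of 6590 and 7290.5. The ranks of Epor, 2661.5, 10511 and 8699, spread widely.

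The strongest erythroid starts belonged to enzymes of heme synthesis, which most cells make. Cpox had ranks of 1304.5, 1161.5 and 2537 and Fech 4033.5, 1370.5 and 1212. Urod (mean rank 11386) was open too, while Alas2, the erythroid form of the first enzyme, was uncalled. The globin genes Hbb-bt, Hbb-y, Hbb-bh1, Hba-a1 and Hba-a2 were uncalled, and Hbb-bs had a summit with a score of 3.94 in Young WT 1 only. The 70 bases at the starts of Hba-a1 and Hba-a2 have 2 places each. Rhag, a red cell membrane protein, was uncalled at its start and had a region at −4.34 kb with a mean rank of 2648.

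Megakaryocyte genes had 17 open, 7 partial and 11 uncalled starts of 35. Rab27b, a GTPase of granule secretion, had ranks of 699, 840 and 965, and F2r, the thrombin receptor PAR1, had 1055, 806.5 and 1838.5. Pf4, platelet factor 4, had 4258.5, 5389.5 and 1841, and Gp1ba, a subunit of the von Willebrand factor receptor, had 2155, 7044 and 5257. All 4 were in the stronger part of the atlas in each list. The open megakaryocyte starts together had a median percentile of 49.1, below the 65.9 of all open protein-coding starts. Of the 12 effector genes of this lineage 6 were open (50%), a share close to the 53.0% of all protein-coding genes. Of the other effectors 9 of 22 erythroid (40.9%), 1 of 23 myeloid and 0 of 22 lymphoid genes were open. No test of these differences was made, since the lists were chosen with earlier results known.

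Itga2b, which encodes CD41, was open with 16240, 11339.5 and 11130, and Gp9 and Selp were open too. Von Willebrand factor (Vwf) was partial with a summit in Young WT 3 only (score 6.34), and it had 4 distal regions. Uncalled were Gp1bb, Gp6, Clec1b, Ppbp, Myl9, P2ry12, Treml1, Mpig6b, Gata1, Fli1 and Mmrn1. P2ry12, an ADP receptor of platelets, had an intronic region at +1.85 kb with ranks of 3223, 3916.5 and 582. Mef2c, a MADS-box factor, was open with a mean rank of 13491, and a region at −1.42 kb from its nearest start had ranks of 162, 32 and 338.5. Nfe2, a bZIP factor of platelet formation, was partial, with a region at −3.10 kb at a mean rank of 1375.

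**Figure D4:**
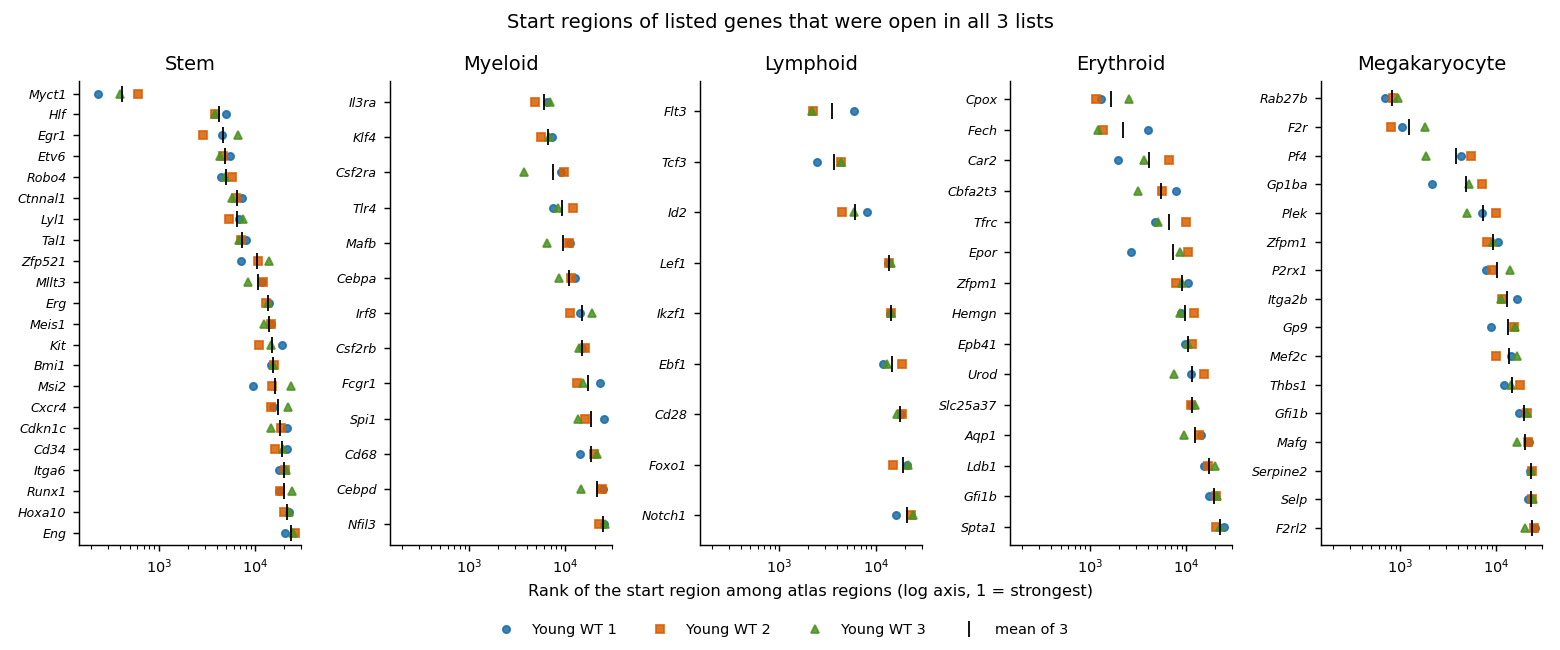
Rank of the start region in each list (x axis, log scale, 1 is the strongest of 25921) for genes of the 5 blood lists whose start was open, ordered by the mean rank (black bar), with blue circles for Young WT 1, orange squares for Young WT 2 and green triangles for Young WT 3. Myct1, Rab27b and F2r lie farthest left, and most genes lie toward the weak end with the 3 lists close together on this scale.

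Markers of other cells and tissues were read in the same way. All 15 housekeeping genes were open, with a median percentile of 67.8. Of 25 genes specific to other organs, Snap25 and Krt10 were open and 23 uncalled, among them Alb, Gfap, Myod1, Ins1 and Krt5. Of 14 genes of bone marrow stroma and endothelium 5 were open (Pecam1, Col1a1, Col1a2, Pdgfrb and Kdr), 4 partial and 5 uncalled. Pecam1, which HSCs also express, had the strongest mean rank of these with 10001. Lepr, Bglap, Adipoq, Cxcl12 and Cdh5, which define stromal, bone, fat and endothelial cells, were uncalled. The part of other cell types in the lists was not tested.

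Gene families had their own patterns. Of the Hox genes, 3 of 11 in the Hoxa cluster were open (among them Hoxa3 and Hoxa10), and 0 of 10 in Hoxb, 0 of 9 in Hoxc and 0 of 9 in Hoxd. Partial starts numbered 5 in Hoxa, 3 in Hoxb, 1 in Hoxc and 5 in Hoxd. Hoxa10 had ranks of 22250, 20099 and 22480, so its region was near the weak end in all lists. Ribosomal protein genes were open in 81 of 86 cases. Olfactory receptor genes were open in 10 of 1135 cases, vomeronasal receptor genes in 1 of 331 and keratin genes in 1 of 53.

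Variable gene segments of the antigen receptors, which are rearranged only in lymphocytes, were open in 19 of 218 immunoglobulin and 15 of 144 T cell receptor cases. Of the immunoglobulin segments 18 were heavy chain genes, led by Ighv1-58 with a mean rank of 4094. Of the T cell receptor segments 12 were Trav genes, and at 11 of these the 70 bases at the summit occur at 2 or more places. At the 3 Trbv segments the 70 summit bases had no second exact place, and near copies were not searched there. Trbv1 had a mean rank of 949.8.

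Distal regions were unevenly spread over genes. Of 7185 protein-coding genes with at least 1, 437 had 5 or more and 32 had 10 or more. Smad7, an inhibitor of TGF-beta signalling, had most with 22, of which 3 were inside the gene, and the strongest of them had a mean rank of 1131. Pde4d, a cAMP phosphodiesterase of 1503.5 kb, had 21, of which 19 were inside. Id2 (12, none inside a gene of 3.34 kb), Klf6 (11) and Etv6 (11, of which 8 inside) also stood high. Starts were open in 81.3% of genes with 10 or more distal regions and in 48.3% of genes without any. Gene length and the distance to the next gene set how many regions can fall nearest to a start, and their part was not tested.

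**Figure D5:**
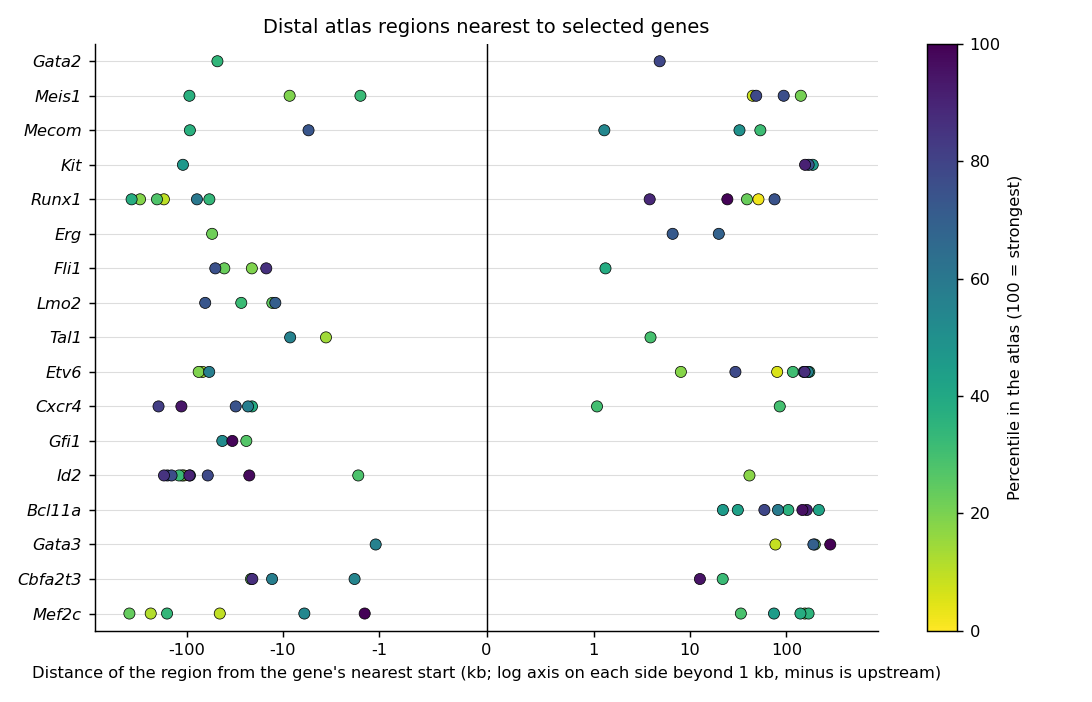
Distal atlas regions (points) by distance from the nearest start of selected genes (x axis, kb, log scale on each side beyond 1 kb, minus is upstream), coloured by percentile in the atlas (100 is the strongest). Dark points mark the strong regions of Runx1 at +24.4 kb, Gfi1 at −33.5 kb, Id2 at −22.4 kb, Bcl11a at +146 kb, Gata3 at +284.5 kb and Mef2c at −1.42 kb.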

How the data were processed

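Chromatin of sorted HSCs had been profiled by ATAC-seq with single 70-base reads from size-selected libraries. Per the submitters' processing notes the authors used Bowtie2 2.5.3 and MACS2 2.2.7.1 with build mm10, and peaks were called per library without pooling. The deposited score of each summit is −log10 of the q-value from the authors' peak caller. It depends on the depth of its library, which the lists do not give, so scores were used only to filter and rank within a list, and no count model or interval was possible.

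Regions were built as described, and starts, exons and distances came from the GENCODE basic annotation of GRCm38. Summits on chromosome Y and scaffolds were left out of the atlas. Motifs were searched on both strands of 201-base windows. Exact copies of 70 bases were counted over the genome, and the 300 strongest regions were searched with blastn 2.17.0 for near copies (at least 90% identity over 70 bases or more). Calculations used Python 3.11.15, numpy 2.4.6, pandas 2.3.3, scipy 1.17.1, numba 0.67.0 and matplotlib 3.10.9, and the merging was tested on simulated data. Replicates were separate pools of mice, so spreads are between these libraries (n = 3). No test was made.

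The members, gene lists and motifs were chosen with earlier results of these data known. Regions and genes were named from the 20 strongest regions overall and distal (the first few of each), the 20 genes with most distal regions, the listed genes by state and gene families by symbol or biotype. Ahsp was not found in the annotation (257 of 258 genes were). Alternatives were other score minimums, windows, start distances, numbers and lengths of lists, rank measures and each library left out. Values of some listed genes are not reported here.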

Additional observations from a re-analysis of the deposited data

Results flagged for a closer look

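Summits outside the chromosomes of the atlas were present in all 3 young WT lists. Chromosome Y held 40 summits in Young WT 1, 25 in Young WT 2 and 16 in Young WT 3. Of 4 Y-linked genes, Ddx3y and Uty had a summit at their start in Young WT 1, and none of the 4 had one in Young WT 2 or 3. Unplaced and unlocalized scaffolds held 98, 95 and 85 summits in the same order. The labels give no sex, and the sex of the pooled mice was not tested.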

How the results depend on the processing

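Over 13 alternative settings, 163 values of 20 results were recomputed. Of these, 140 moved by less than the spread between lists, or by less than 1.5 times for counts, and 23 moved by more. The share of atlas regions at starts, 47.3% as reported, was 50.7% with scores of at least 5, 40.9% with a summit in at least 2 lists, 43.5% with starts taken within 500 bp and 51.1% within 2 kb. With scores of at least 5 the AP-1 share of distal regions was 15.9% and the CTCF share 3.09%. Motif windows of 50 bp on each side, which hold fewer bases, gave 14.3% for ETS, 9.75% for RUNX, 8.50% for GATA, 28.8% for E-box, 9.56% for AP-1 and 2.04% for CTCF. Open lymphoid starts numbered 14 with at least 2 lists and again with 2 kb, and other organs had 1 open start within 500 bp. In an alternative chosen after seeing the data, 2 of the 20 strongest regions remained when only regions with 1 place in the genome were kept. Each library was also left out in turn, with a summit required in both remaining lists, a looser rule than all 3 lists. Shares at starts then ran from 43.13% to 46.28% and ETS from 21.34% to 22.55%. RUNX ran from 14.44% to 15.13%, AP-1 from 14.91% to 15.15% and CTCF from 3.689% to 4.33%. The atlas then held 27397 to 30744 regions, the largest without Young WT 3. The looser rule and the missing library were not told apart in these values. The cause of these moves was not tested where the setting itself does not give it. No paired analysis was possible because only 1 group was described. Depth was unknown, so uncalled starts may be limited by it.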
